A study of Jatropha curcas with 31 samples.

Results

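Leaf arrays were set against seed arrays of the middle of seed maturation in *Jatropha curcas*, an oil-seed shrub of the spurge family. The comparison used 16 of the 31 arrays of the study, chosen by their sample titles. On the leaf side stood 10 arrays, 5 from a toxic and 5 from a non-toxic accession. On the seed side stood 6 arrays of whole seeds, 3 of stage III (fruits labelled green-black) and 3 of stage IV (yellow). Stages were set by fruit and seed coat colour, and per the study's methods the seeds came from 1 selected plant. The seed arrays carry no toxicity label, and the leaf age and the number of leaf plants are not given in the sources used here. Tissue and plant of origin therefore cannot be told apart, and p-values measure the spread between these arrays only. The probes were designed from contigs (assembled transcripts) of a seed transcriptome, so transcripts made in leaf alone may have no probe.

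In the middle of maturation the embryo and endosperm of an oil seed fill with storage proteins and with triacylglycerol, which is packed in oil bodies coated by oleosins. Towards the end of filling the seed accumulates late embryogenesis abundant (LEA) proteins, small heat shock proteins and oligosaccharides of the raffinose family, which are associated with tolerance of drying, and abscisic acid is the hormone best known for driving this phase. A mature leaf is organised around photosynthesis, with the chloroplast's light-harvesting and electron transport complexes, the carbon-fixing Calvin cycle, and photorespiration, which salvages the product of the oxygenase reaction of rubisco.

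Values are log2 signals after quantile normalization, so a difference of 1 is 2-fold, and differences are seed minus leaf with their standard error (SE). A contig was read by its brightest probe over both tissues, and 19838 contigs were covered by 57842 probes. A probe or contig was called when the adjusted p of the limma fit (Benjamini-Hochberg over all probes) was under 0.05 and the difference was at least 1. On each of the 16 arrays, between 47.9% and 68.4% of the probe spots were well above background by the scanner software's criterion. Where no array of a tissue reached that criterion, the difference is given as a bound ("at least N-fold"), since only an upper limit of the dim tissue's signal was measured. Probes ran in sense or antisense direction relative to the contig, whose own strand is not given in the sources used here, and some probes can cross-hybridize with related transcripts. Fewer cells of a type and less RNA per cell cannot be told apart in such bulk tissue.

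The arrays came from 4 slides. Each of slides 1 to 3 held 1 array of stage III, of stage IV, of toxic and of non-toxic leaf, whereas the other 4 leaf arrays lay on slide 4, which had a scan date of its own and carried no array of stage III or IV. Leaf arrays on slide 4 stood apart from those on slides 1 to 3. Their median correlation over all probes was r = 0.904, against 0.965 among leaf arrays within slides 1 to 3, 0.817 between leaf and seed, and 0.936 between the seed stages. In a principal component analysis the first component (56.0% of the variance) separated leaf from seed and the second (16.3%) separated the leaf arrays of slide 4 from those of slides 1 to 3. At least 1 unit lay between both sets of leaf arrays for 17715 probes (30.6%), and for 0 probes in the log2 values that the authors deposited. The comparison of both seed stages together with leaf was therefore repeated on the 12 arrays of slides 1 to 3 (6 leaf, 6 seed). Counts over gene lists that differed there are given beside those of 16 arrays, and so are values of contigs that were then no longer called. Single stages against leaf, stage IV against stage III, and toxic against non-toxic leaf were not counted on slides 1 to 3 alone.

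The tissue labels were checked on marker contigs. The summed signal of 12 leaf markers (rubisco large subunit, photosystem II, HCF173, protochlorophyllide reductase and phosphoribulokinase contigs) was 18.64 to 18.80 (log2 of the sum) on the leaf arrays, 14.89 to 15.10 at stage III and 13.80 to 13.85 at stage IV. In leaf the photosystem II contig00556 (mean 18.11) and rubisco large subunit contig00674 (15.47) made up most of it. Taken singly, contig00736 (-0.24), contig13733 (-0.58) and the HCF173 contig00759 (0.37) were not called, and the others were lower in seed. The summed signal of 6 storage tissue markers was 8.67 to 10.004 on leaf arrays and 18.43 to 18.64 on seed arrays. No leaf array overlapped a seed array in either sum. The toxic and non-toxic leaf arrays differed at 0 of 57842 probes by limma, with 1490 probes at an unadjusted p under 0.05, and were pooled.

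Of the 19838 contigs, 4084 (20.6%) were higher in seed and 4780 (24.1%) were lower, and 10974 (55.3%) were called neither way. Over single probes the counts were 8766 higher (15.2%) and 10482 lower (18.1%). At the stricter threshold of the study's methods, an adjusted p under 1e-08, 997 contigs (5.03%, and 2.89% of probes) passed in either direction. On slides 1 to 3 alone, 4047 contigs were higher (20.4%) and 4589 lower (23.1%), and 15.1% and 17.3% of probes. Of the probes called on 16 arrays, 85.4% of the higher and 82.7% of the lower were called on slides 1 to 3 too. Of the contigs called on 16 arrays, 3591 of the 4084 higher (87.9%) and 4148 of the 4780 lower (86.8%) were also called on slides 1 to 3, which share 12 of the arrays, and 0 were called in opposite directions. The share of higher among called probes was 45.5% after quantile normalization and 59.7% when arrays were scaled to their 75th percentile instead (46.6% and 55.8% on slides 1 to 3), so the balance of the 2 directions is not settled by these values. In these values large differences lay more often on the seed side: a difference of at least 4 was reached by 727 of the higher and 511 of the lower contigs, and one of at least 8 by 129 and 25. These counts took no bounds. Dim on every array of the lower tissue were 600 of the 4084 higher contigs (14.7%) and 277 of the 4780 lower ones (5.79%). The probes came from a seed transcriptome, so large differences on the leaf side may lack a probe. Leaf and seed arrays did not overlap for 2620 of the higher and 3310 of the lower contigs, where 14% and 18% of all contigs (8.9% and 11.3% of probes) did not overlap in these directions. Among called contigs with more than 1 probe, 2978 of 3096 higher ones (96.2%) had no probe called lower, and 3968 of 4182 lower ones (94.9%) had no probe called higher. Probes called both ways occurred in 453 contigs (2.28%).

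**Figure D1:**
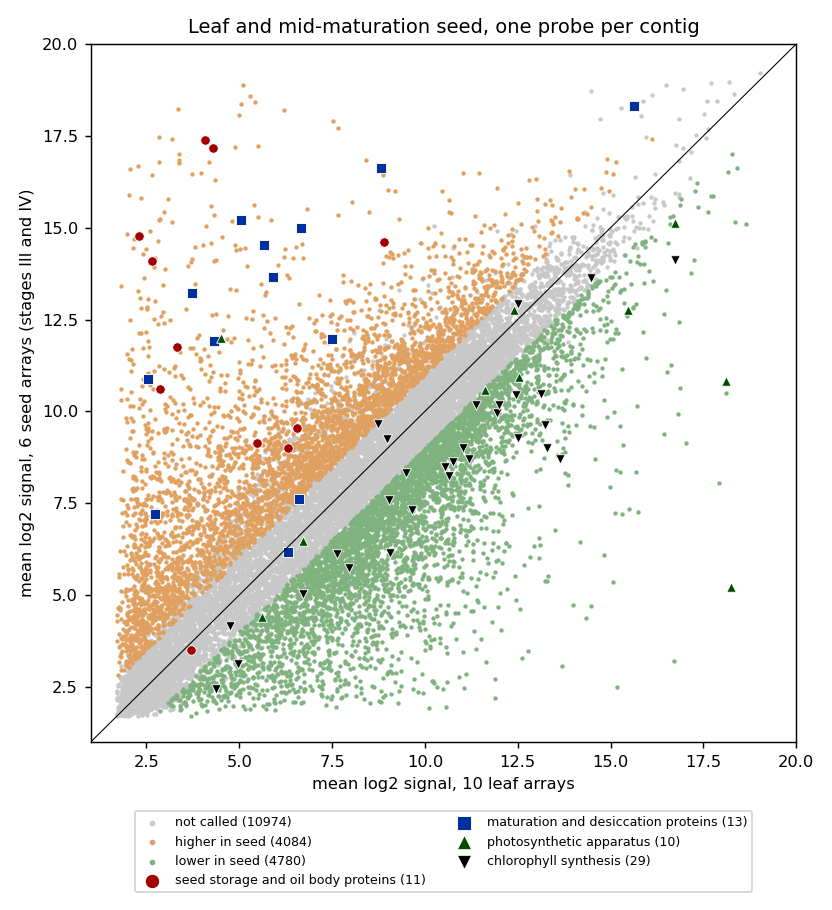
Mean log2 signal of each of 19838 contigs on the 10 leaf arrays (x axis) and the 6 seed arrays (y axis), with called contigs in colour, 4 gene lists as large symbols and the line of equal signal. Storage and maturation contigs lie mostly far above the line, where a difference of at least 8 was reached by 129 higher contigs, and chlorophyll synthesis contigs lie mostly below it.

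Contigs for seed storage and oil body proteins were among the largest differences. Of 11 such contigs, 8 were higher in seed (72.7%, beside 20.6% of all contigs) and 0 were lower. The median difference was 7.76, against -0.04 over all contigs. Of these 11, 8 had been picked by the study for differing between seed stages, so the count is not independent evidence of a seed direction. The oleosin contig12313, a coat protein of oil bodies, gave 17.33, 17.28 and 17.43 on the 3 arrays of stage III, 17.43, 17.64 and 17.17 at stage IV, and 3.10 to 4.83 (median 4.12) on the 10 leaf arrays, only 2 of which were well above background. No leaf array came near the seed arrays, and the difference was 13.32 ± 0.27 (adjusted p = 3.38e-14). The contig19897 of a seed-type tonoplast intrinsic protein (TIP3), a water channel of the membrane of protein storage vacuoles, lay between 16.89 and 17.33 in seed and between 2.85 and 5.24 in leaf (difference 12.87 ± 0.33).

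The storage globulins followed. A vicilin-like contig (contig13681) gave 14.60, 14.72 and 14.45 at stage III, 14.87, 15.37 and 14.67 at stage IV, and 2.03 to 2.998 in leaf. It was well above background on no leaf array, and its seed signal was at least 2882-fold higher. The vicilin contig00303 gave 12.33, 12.39 and 12.47 at stage III and 10.94, 10.98 and 11.34 at stage IV, with 1.84 to 4.22 (median 3.50) in leaf, a difference of 8.41 ± 0.36. For the 11S globulin contig10678 the stages differed: it gave 12.36, 12.33 and 12.55 at stage III but 8.36, 8.36 and 9.77 at stage IV, against 1.75 to 5.50 (median 1.80) in leaf. All 6 seed arrays stood above all 10 leaf arrays (difference 7.76 ± 0.56), and stage IV was lower than stage III by 3.58 on the log2 scale (adjusted p = 0.02).

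An oleosin of 16 kDa (contig11740) was well above background in leaf too, at 8.42 to 9.89, and at 14.31 to 14.93 in seed, a difference of 5.70 ± 0.27. The embryo-specific protein 1 of contig01353, a calcium-binding caleosin-like protein of oil bodies by its *Arabidopsis* counterpart ATS1, gave 13.74 to 14.59 in seed and 1.74 to 5.05 in leaf (difference 11.43 ± 0.46). The weakest call was that of a ricin-agglutinin family contig (contig03793), named after the toxic lectins of castor seed. It gave 10.30, 8.46 and 10.08 at stage III, 8.43, 8.77 and 8.72 at stage IV and 2.55 to 10.31 (median 4.35) in leaf, so the tissues overlapped although the means differed by 3.65 ± 1.14 (adjusted p = 0.0176).

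The other 3 contigs of the list were not called. Those were 2 type 1 ribosome-inactivating protein contigs, contig09565 (2.69 ± 1.25, adjusted p = 0.102) and contig14417 (-0.21 ± 0.54), and a germin-like cupin assigned to oxalate oxidase (contig00553), which is one of the contigs whose leaf signal moved with the slide. The leaf values of contig09565 spread from 2.52 to 12.15. It was called without toxic leaf replicate 1 (3.35), without non-toxic leaf replicate 5 (3.18), with slide as a block (3.51), and with all 31 arrays in the fit (2.59).

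Maturation and desiccation proteins were higher in seed too. Of 13 contigs 10 were higher (76.9%, beside 20.6% of all contigs) and 0 lower, with a median difference of 7.77. Of the 13, 11 had likewise been picked by the study for differences between seed stages. Among LEA-type proteins, which are thought to protect membranes and proteins as water is lost, the SBP65-like contig05530 gave 15.49, 15.03 and 15.23 at stage III, 14.70, 14.45 and 15.05 at stage IV and 4.73 to 8.45 (median 6.96) in leaf (difference 8.32 ± 0.45). The DC-8-like contig11549 lay between 16.26 and 16.89 in seed and between 7.20 and 10.87 in leaf (7.81 ± 0.57). In neither contig did the tissues overlap.

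The seed maturation protein SMP1 (contig15908) gave 14.40, 14.48 and 14.60 at stage III, 14.51, 14.53 and 14.71 at stage IV, and 3.40 to 6.70 (median 5.82) in leaf, a difference of 8.87 ± 0.37. A desiccation-related protein like PCC13-62 of the resurrection plant *Craterostigma* (contig13448) was at 11.64 to 12.15 at stage III, 9.56 to 10.13 at stage IV and 1.69 to 4.28 in leaf (8.33 ± 0.45). A second contig with the same description (contig17287) gave 5.33 to 7.34 in seed and 4.99 to 7.26 in leaf, and was not called. The contigs of this name differed in whether they were called.

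Small heat shock proteins, chaperones that also accumulate in ripening seeds without heat, made up 4 of the called contigs. The HSP22 contig02395 gave 13.09, 13.15 and 13.29 at stage III, 14.06, 14.25 and 14.17 at stage IV and 4.23 to 7.66 in leaf (7.77 ± 0.48). The differences of the other 3 were 7.60 ± 0.39 (contig00455, mitochondrial type), 4.48 ± 0.32 (contig02002, class IV) and 4.46 ± 0.53 (contig02216, class I). The class IV contig was also higher at stage IV than at stage III, by 1.75 (adjusted p = 0.0477).

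Further contigs of the list were an OEP16-like pore protein of the plastid envelope, whose *Arabidopsis* counterpart OEP16-2 is a seed form, and an MFT-like protein of the family of FT, which in *Arabidopsis* acts on germination through abscisic acid signalling. The OEP16-like contig05543 gave 14.90 to 15.47 in seed and 4.17 to 6.18 in leaf (10.18 ± 0.27). The MFT-like contig12829 gave 14.08, 13.70 and 14.46 at stage III, 12.06, 12.46 and 12.59 at stage IV and 1.92 to 5.17 in leaf (9.48 ± 0.36). Both were separated from leaf on every array.

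An LEA 2-like contig (contig00783) was not called. Its brightest probe gave 18.16 to 18.61 in seed, 18.16 to 18.41 on the leaf arrays of slides 1 to 3, and 11.16 to 12.25 on those of slide 4. The difference was 2.697 ± 1.405 on 16 arrays (not called) and 0.06 on slides 1 to 3. A second probe of the contig, chosen for mention after its value was seen, differed by 11.78 (adjusted p = 1.88e-08). The D-34-like contig02026 (1.00 ± 0.47) was not called on 16 arrays either, but was called without non-toxic leaf replicate 1 (1.27) and without stage III replicate 1 (1.31).

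**Figure D2:**
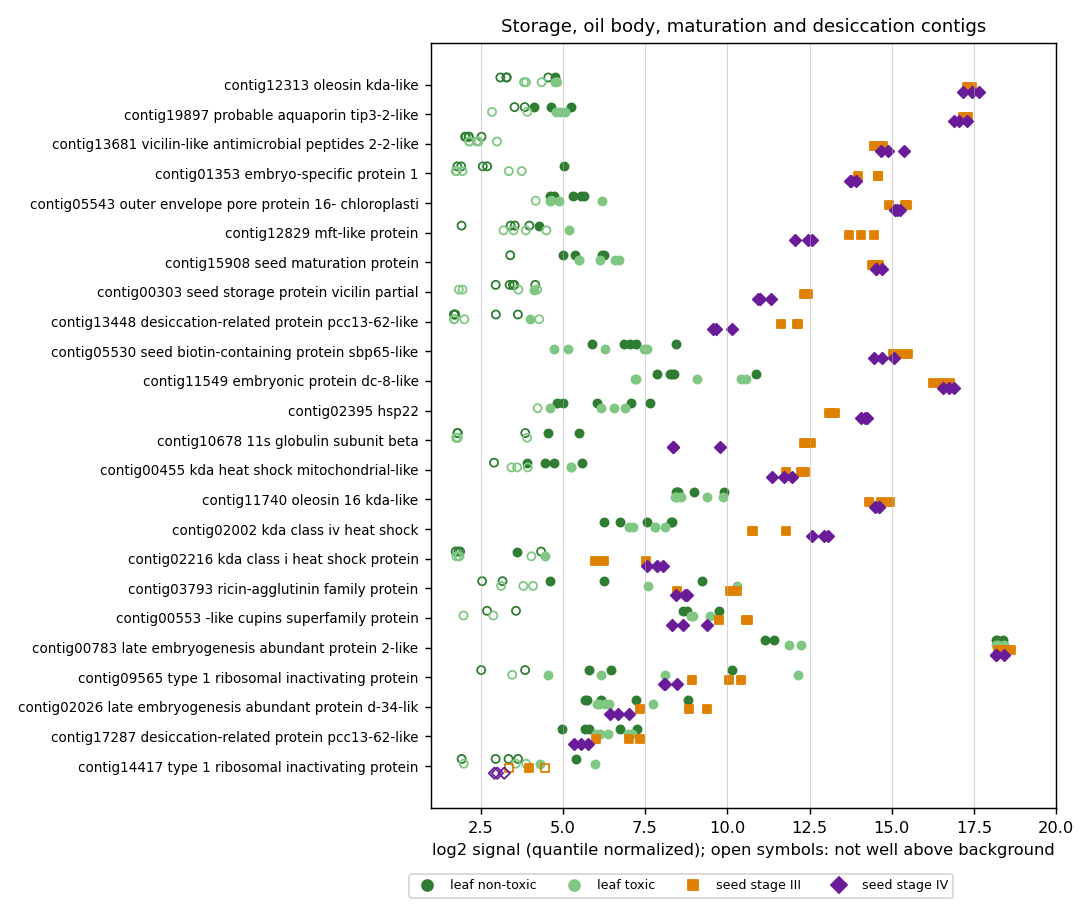
Log2 signal on each of the 16 arrays for the 24 contigs of the storage and oil body list and of the maturation and desiccation list, ordered by difference. Open symbols are spots not well above background, as on 8 of the 10 leaf arrays for the oleosin contig12313, while 18 of the contigs were called higher in seed.

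Proteases that cut storage protein precursors were represented by 4 contigs, all picked by the study between seed stages. A vacuolar-processing enzyme of the β type, which matures globulins in the vacuole (contig01185), gave 15.90 to 16.02 in seed and 7.20 to 10.77 in leaf (6.78 ± 0.49). A cysteine proteinase 15A-like contig (contig08053) gave 13.93 to 14.89 in seed and 4.32 to 7.69 in leaf (8.18 ± 0.47). A γ-type vacuolar-processing enzyme, a form known from vegetative tissue (contig03089), was lower in seed (-1.16 ± 0.32), though no longer called without non-toxic leaf replicate 4 (-0.99).

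Photosynthesis contigs differed the other way. Of 10 contigs of the photosynthetic apparatus 7 were lower in seed (70%) and 1 higher (10%), beside 24.1% and 20.6% of all contigs. The median difference was -1.41, and on slides 1 to 3 the counts were 6 and 1. The largest difference was that of a rubisco-assigned contig (contig19317), the carbon-fixing enzyme of the chloroplast, at 17.64 to 18.95 (median 17.99) in leaf, 5.90, 5.06 and 5.85 at stage III and 4.30, 5.41 and 4.83 at stage IV. The gap between the tissues exceeded the spread within either by far (-13.02 ± 0.27, adjusted p = 4.44e-14). Subunit R of photosystem II (PSBR, contig00556) gave 17.70 to 18.51 in leaf, 10.93, 11.50 and 11.16 at stage III and 10.52, 10.41 and 10.42 at stage IV (-7.29 ± 0.18).

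The signal of photosynthesis contigs in seed was lower than in leaf but often not at background. Ferredoxin-NADP reductase (contig11112), the last step of the electron transport chain, was well above background on all arrays, at 12.12 to 13.27 in leaf and 10.82 to 11.09 in seed (-1.59 ± 0.16). Subunit a of the chloroplast ATP synthase (contig01580) gave 15.32 to 17.53 in leaf and 14.85 to 15.39 in seed, with a difference of -1.60 ± 0.34 on 16 arrays and -2.51 on slides 1 to 3. Its call was lost with the mean of all probes of the contig (-0.94). A thylakoid lumen protein (contig02672) passed the threshold narrowly on 16 arrays (-1.03 ± 0.20) and not on slides 1 to 3 (-0.79), nor without toxic leaf replicate 4 (-0.94), non-toxic leaf replicate 5 (-0.94), stage III replicate 2 (-0.97) or stage IV replicate 1 (-0.98).

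Not called were a PsbP domain protein (contig00736, -0.24 ± 0.46) and HCF173, a factor that in *Arabidopsis* is needed for translation of the photosystem II core protein D1 (contig00759, 0.37 ± 0.24). A further rubisco-assigned contig (contig12729) was lower by a small margin (-1.23 ± 0.21), which was lost with other scaling (-0.55), normexp background correction (-0.45) and the deposited values (-0.70). Against all of these, the rubisco-assigned contig04560 was higher in seed, at 12.95, 12.19 and 12.86 at stage III and 11.34, 11.36 and 11.23 at stage IV, with 3.13 to 5.89 (median 4.27) in leaf (7.48 ± 0.44). The tables used here give it the same enzyme name and no more, so which form of rubisco it codes for was not resolved.

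The rubisco large subunit, encoded in the chloroplast genome (contig00674), gave 17.15 to 17.46 on leaf arrays of slides 1 to 3 but 12.35 to 12.94 on slide 4. Stage III gave 13.98, 13.73 and 13.69 and stage IV 11.86, 11.999 and 11.37, so the slide 4 leaf arrays fell in the range of the seed. The difference was -4.89 (adjusted p = 1.70e-09) on slides 1 to 3 and -2.69 ± 0.99 (adjusted p = 0.0409) on 16 arrays. The 16-array call did not hold when any 1 array of slides 1 to 3 was left out, leaf or seed, with differences from -2.76 to -2.41.

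**Figure D3:**
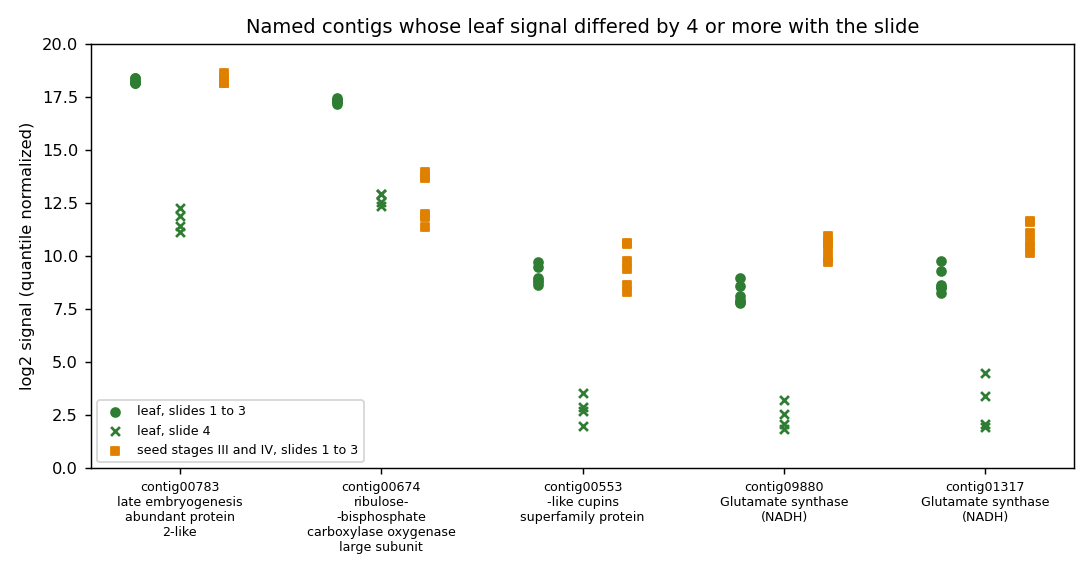
Log2 signal of the 5 named contigs whose leaf signal lay at least 4 apart between slide 4 (crosses) and slides 1 to 3 (circles), beside the seed arrays of stages III and IV (squares). For contig00783 the leaf arrays of slides 1 to 3 lie at 18.16 to 18.41, within the range of the seed arrays, and those of slide 4 lie lower, at 11.16 to 12.25.

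Contigs of chlorophyll synthesis were mostly lower in seed. Of 29 contigs 24 were lower in seed and 0 higher (82.8%, beside 24.1% of all contigs), with a median of -2.02, and on slides 1 to 3 the counts were 23 and 0. Glutamyl-tRNA reductase, the entry and main control point of tetrapyrrole synthesis (contig10864), gave 12.87 to 14.41 in leaf, 8.17, 7.56 and 7.75 at stage III and 9.59, 9.64 and 9.59 at stage IV (-4.93 ± 0.21). It was thus lower in seed at both stages, and higher at stage IV than at stage III by 1.78 (adjusted p = 0.00471). Protochlorophyllide reductase, the light-dependent step, was held by 7 contigs, of which 6 were lower, the largest difference being -4.28 ± 0.16 (contig03279, 12.93 to 13.65 in leaf and 8.56 to 9.86 in seed).

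Of 32 contigs of Calvin cycle enzymes, 20 were lower (62.5%) and 2 higher (6.25%), beside 24.1% and 20.6% of all contigs. The median was -1.66, and on slides 1 to 3 the counts were 20 and 3. The rubisco contigs contig19317, contig00674, contig12729 and contig04560 are also counted in the photosynthetic apparatus, and other members in glycolysis. The counts of these lists are therefore not separate. A contig assigned to fructose-bisphosphatase and sedoheptulose-bisphosphatase (contig06629), enzymes that regenerate the acceptor of carbon dioxide, gave 12.36 to 12.95 in leaf, 3.30, 3.27 and 1.96 at stage III and 3.35, 4.06 and 3.74 at stage IV (-9.34 ± 0.20). It was near background in seed, with 2 of 6 seed arrays well above it. The 2 higher contigs were the rubisco-assigned contig04560 and a ribulose-phosphate 3-epimerase (contig07420, 2.17 ± 0.16), an enzyme shared with the pentose phosphate pathway.

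**Figure D4:**
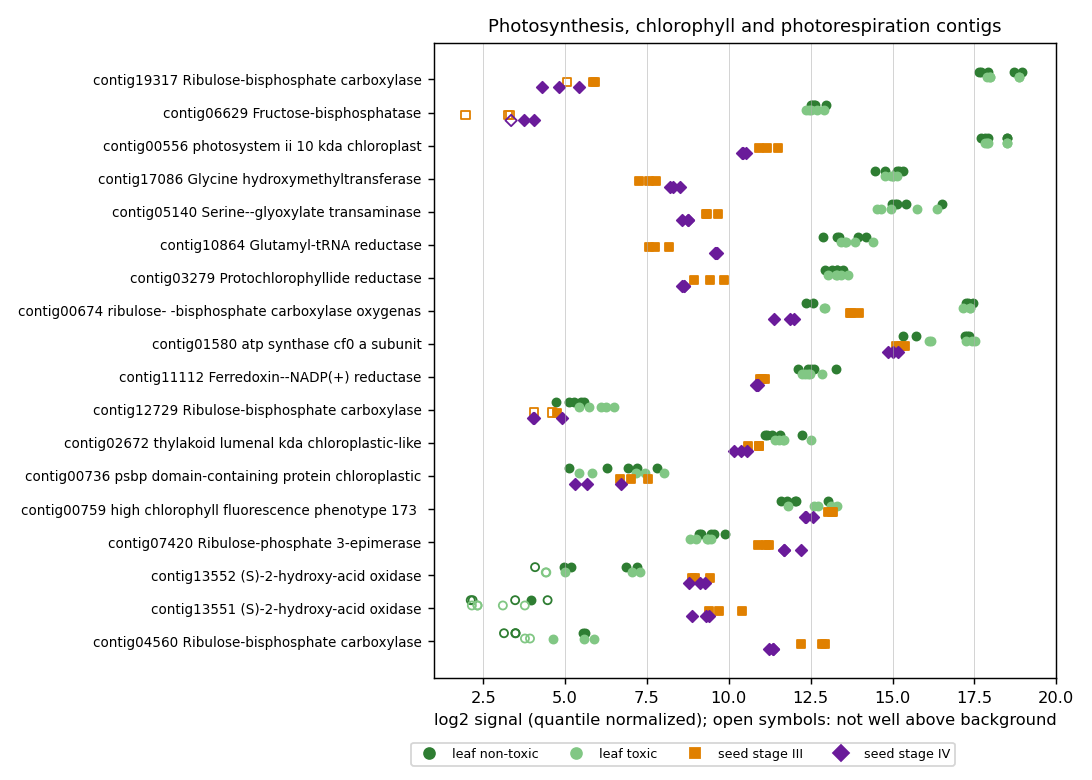
Log2 signal on each of the 16 arrays for the contigs of the photosynthetic apparatus and the named contigs of the Calvin cycle, chlorophyll synthesis and photorespiration, ordered by difference. The rubisco-assigned contig19317 lies at 17.64 to 18.95 in leaf and at 4.30 to 5.90 in seed, and the 4 contigs at the bottom are higher in seed.

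Among 46 photorespiration contigs 21 were lower (45.7%) and 7 higher (15.2%), beside 24.1% and 20.6% of all contigs. The median was -0.76, and on slides 1 to 3 the counts were 20 and 11. Glycine hydroxymethyltransferase, which makes serine from glycine in the mitochondrion (contig17086), gave 14.46 to 15.31 in leaf and 7.25 to 8.52 in seed (-7.04 ± 0.15). Serine-glyoxylate transaminase of the peroxisome (contig05140) gave 14.53 to 16.52 and 8.57 to 9.67 (-6.27 ± 0.30). Of the opposite direction were 2 (S)-2-hydroxy-acid oxidase contigs, the enzyme class of glycolate oxidase, contig13551 (6.53 ± 0.38) and contig13552 (3.43 ± 0.55).

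Carbonic anhydrase had 6 of 11 contigs lower (54.5%, beside 24.1% of all contigs) and 0 higher. Its median was -1.20, and the largest falls were those of contig08300 (-3.24 ± 0.27) and contig08408 (-2.31 ± 0.26). Synthesis of the galactolipids of thylakoid membranes was split over 5 contigs. Lower were 1 contig of monogalactosyldiacylglycerol synthase (contig10244, -2.07 ± 0.33) and 2 of digalactosyldiacylglycerol synthase, the larger difference being that of contig19002 (-2.51 ± 0.29). Higher were a galactolipid galactosyltransferase (contig12911, 3.19 ± 0.38) and contig16135 (1.07 ± 0.18), whose assignment names both that enzyme and digalactosyldiacylglycerol synthase. With normexp background correction the calls of contig08408 (-0.69) and contig10244 (-0.65) were lost.

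Lipid synthesis was not uniform. In plastid fatty acid synthesis, which builds acyl chains on acyl carrier protein, 16 of 39 contigs were higher (41.03%) and 9 lower (23.1%). The shares of all contigs were 20.6% and 24.1%, and the median of the list was 0.86. On slides 1 to 3 the counts were 12 and 8. At stage III alone 15 were higher and 9 lower, and at stage IV 9 were higher and 10 lower (medians 0.99 and 0.31). A 3-oxoacyl-ACP reductase-type contig also assigned to alcohol dehydrogenase (contig02217) gave 16.25, 16.52 and 16.47 at stage III, 16.41, 16.59 and 16.48 at stage IV and 2.17 to 5.88 (median 3.35) in leaf (12.72 ± 0.56). Another contig of that reductase name (contig21412) gave 11.34 to 12.22 in seed and 3.08 to 6.24 in leaf (7.11 ± 0.42). The largest differences in the other direction carried the same name, contig06231 (-4.76 ± 0.35) and contig21111 (-3.97 ± 0.30).

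Other steps of the pathway were also found in both directions. Acyl-ACP desaturase contigs, which introduce the first double bond, were higher by 5.83 (contig16368), 2.66 (contig19191) and 2.43 (contig03293), and 1 was lower (contig18144, -1.81). The mean of contig16368 was 12.05 at stage III and 6.74 at stage IV, and that of contig03293 was 10.06 and 5.15, so contig03293 differed from leaf by 4.88 at stage III and by -0.02 at stage IV. Acetyl-CoA carboxylase, the committed step, was higher in 3 contigs (contig05214 by 1.48, contig11763 by 1.32, contig06808 by 1.02) and lower in 1 (contig07157, -2.68). On slides 1 to 3 these 3 higher contigs (0.93, 0.64 and 0.41) and the lower desaturase contig18144 (-0.96) were under the minimum difference and not called. β-ketoacyl-ACP synthase I, which elongates the chain, was higher in contig02910 (1.08) and lower in contig08211 (-1.84). Enoyl-ACP reductase (contig07792) and acyl carrier protein (contig19942) were higher by 1.04 each, close to the minimum difference. These 12 contigs were chosen for mention after their values were seen.

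Of 28 contigs for triacylglycerol assembly, 8 were higher (28.6%) and 6 lower (21.4%), beside 20.6% and 24.1% of all contigs, and on slides 1 to 3 the counts were 7 and 5. The median (-0.12) changed sign with 75th percentile scaling (0.01) and with slide as a block (0.10), and on slides 1 to 3 it was 0.11. The clearest was contig00653, a wax ester synthase-like acyltransferase (WSD1-like) assigned to diacylglycerol acyltransferase. It gave 12.04, 11.23 and 11.91 at stage III and 10.45, 10.43 and 10.47 at stage IV, was well above background on no leaf array, and was at least 223-fold higher in seed, with stage IV lower than stage III by 1.27. Another contig assigned to diacylglycerol acyltransferase (contig04042) was lower in seed, at 8.61 to 10.999 in leaf and 5.44 to 7.90 in seed (-3.46 ± 0.35), and so was a phosphatidate phosphatase (contig03775, -4.55 ± 0.32). A phospholipid:diacylglycerol acyltransferase (contig02496), which moves an acyl chain from a membrane lipid to diacylglycerol, was higher by 3.02, and was chosen for mention after its value was seen. The top contig of this list by size was again contig01353, whose enzyme assignment to glycerol-3-phosphate acyltransferase stands beside its description as embryo-specific protein 1.

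In carbohydrate metabolism, contigs of the raffinose family were mostly higher in seed. Of 14 contigs for these oligosaccharides 8 were higher (57.1%) and 3 lower (21.4%), beside 20.6% and 24.1% of all contigs. The median was 4.17, and the counts were the same on slides 1 to 3. A galactinol synthase (inositol 3-α-galactosyltransferase), which makes the galactosyl donor (contig13451), gave 11.84, 12.18 and 11.56 at stage III, 13.61, 13.88 and 13.72 at stage IV and 1.84 to 6.46 (median 3.09) in leaf (9.23 ± 0.77). A contig assigned to raffinose and stachyose synthases (contig08138) gave 12.80, 11.93 and 12.92, then 11.58, 11.52 and 11.77, with 2.05 to 5.68 in leaf (8.18 ± 0.52). Opposed to these, contig11314 (-3.80 ± 0.72) and contig05365 (-3.05 ± 0.26), of the same enzyme classes, were lower in seed.

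Enzymes of sucrose cleavage and starch synthesis were lower in 14 of 36 contigs (38.9%) and higher in 5 (13.9%), beside 24.1% and 20.6% of all contigs, with a median of -0.44. The excess of lower contigs was smaller on slides 1 to 3 (12 lower, 8 higher), and with normexp background correction (9 and 3). A sucrose synthase with SUS2 as its *Arabidopsis* counterpart, the enzyme by which sinks break down imported sucrose (contig05743), gave 10.48 to 11.63 in seed and 1.82 to 6.92 in leaf (6.69 ± 0.61). A fructokinase contig (contig08592) was higher by 1.72 ± 0.19. Among the lower ones were a β-fructofuranosidase (invertase, contig10320, -4.83 ± 0.50) and a starch synthase (contig06933, -2.94 ± 0.25).

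Of 66 contigs for glycolysis and pyruvate dehydrogenase, 10 were higher and 16 lower, at shares below (15.2%) and close to (24.2%) those of all contigs. Some of these contigs belong to the Calvin cycle list as well, among them both lower contigs named below. On slides 1 to 3 the balance turned, with 13 higher and 12 lower. Phosphofructokinase PFK2 (contig01324), an early and regulated step, gave 11.11, 10.67 and 10.87 at stage III, 11.46, 11.49 and 11.21 at stage IV and 6.20 to 8.86 (median 7.77) in leaf (3.44 ± 0.41), and a pyruvate kinase (contig05790) was higher by 1.82 ± 0.42. A triose-phosphate isomerase (contig21500) was lower (-6.08 ± 0.30). A fructose-bisphosphate aldolase (contig07145) gave 8.91 to 11.67 in leaf, 4.62, 4.38 and 4.11 at stage III and 8.49, 8.82 and 8.25 at stage IV, all below the leaf arrays. The mean difference from leaf was -5.46 at stage III and -1.31 at stage IV, and stage IV was higher than stage III by 4.15 (adjusted p = 0.000632). Contig sequences were not among the files used here, and the letters that tie a name to a transcript are those of the amplification primers the study designed for PFK2 and for contigs described further on.
contig01324 primer 1: atcgggctggttagtgacag
contig01324 primer 2: attggaagaagttgcgaagg

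Abscisic acid metabolism held 11 contigs, 3 higher (27.3%) and 4 lower (36.4%), beside 20.6% and 24.1% of all contigs. On slides 1 to 3 the counts were 3 and 3. The 9-*cis*-epoxycarotenoid dioxygenase NCED6 (contig02415), of the enzyme class that commits carotenoids to abscisic acid and known in *Arabidopsis* as an endosperm form, gave 8.67, 8.26 and 8.28 at stage III and 9.29, 9.37 and 9.42 at stage IV. It was well above background on no leaf array (2.01 to 2.54) and at least 48.4-fold higher in seed. Its primers are printed because it carries the largest difference of the list.
contig02415 primer 1: tggcagaaggaggtgaagtc
contig02415 primer 2: acttgctccatgtccaatgc

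Abscisic acid 8'-hydroxylase, which starts the breakdown of the hormone, moved both ways. It was higher in seed in contig17989, at 5.35, 5.12 and 4.67 at stage III and 6.74, 7.32 and 6.48 at stage IV, with no leaf array well above background, at least 6.31-fold. It was lower in contig10023 (-3.61 ± 0.46, -0.97 and no longer called with normexp background correction). Zeaxanthin epoxidase (contig07393), an early step that also serves the xanthophyll cycle of leaves, was lower (-3.72 ± 0.29), with stage IV higher than stage III by 1.59.

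For gibberellin, 3 of 14 contigs were higher (21.4%) and 1 lower (7.14%), beside 20.6% and 24.1% of all contigs. On slides 1 to 3 the counts were 3 and 0. The higher ones were led by 2 *ent*-kaurene oxidase contigs, contig09671 (3.86 ± 0.45) and contig14842 (3.75 ± 0.62). The lower one, *ent*-copalyl diphosphate synthase (contig02283, -1.77 ± 0.67, adjusted p = 0.0465), was not called on slides 1 to 3 (-1.35). On 16 arrays the call was lost when any 1 of 11 of the 16 arrays was left out, with differences from -1.88 to -1.51. Jasmonate synthesis had 4 of 13 contigs higher and 4 lower (30.8% each, beside 20.6% and 24.1% of all contigs). A jasmonate O-methyltransferase-type contig (contig14766) gave 13.69 to 14.45 in seed and 3.35 to 8.22 in leaf (7.99 ± 0.58), and another of that name was lower (contig18454, -3.95 ± 0.43). Allene-oxide cyclase (contig17514) was higher by 2.97 ± 0.84 and 12-oxophytodienoate reductase (contig03020) was lower (-4.00 ± 0.26).

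In flavonoid synthesis, 26 of 106 contigs were higher (24.5%) and 37 lower (34.9%), beside 20.6% and 24.1% of all contigs, and on slides 1 to 3 the counts were 29 and 34. Some contigs of late steps towards proanthocyanidins, the tannins best known from seed coats, were lower in seed. They were named as the largest falls of a list that was split in direction (given below). Anthocyanidin reductase (BAN, contig05539) gave 11.35 to 14.38 (median 12.20) in leaf, 5.28, 7.02 and 5.16 at stage III and 3.67, 4.09 and 3.91 at stage IV (-7.59 ± 0.40), and anthocyanidin synthase (contig12700) 9.93 to 14.10, 4.99 to 5.59 and 2.88 to 3.80 (-7.54 ± 0.49). Chalcone synthase-type contig04957, the first committed step, gave 12.46 to 16.55 in leaf and 2.19 to 5.27 in seed (-9.96 ± 0.63).

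In the list of seed coat and proanthocyanidin genes, 5 of 11 contigs were higher (45.5%) and 4 lower (36.4%), beside 20.6% and 24.1% of all contigs. Its median (-0.14) turned positive (0.50) with 75th percentile scaling. Of the 11, 4 had been picked by the study for differing between seed stages: contig18848, contig18849, contig03520 and contig03243. Their stage differences below are therefore not independent evidence, and neither is the count of a seed direction. The higher ones were led by 2 contigs of a TT12-like transporter, which in *Arabidopsis* loads flavonoids into seed coat vacuoles. The first, contig18848, gave 9.74, 9.88 and 9.95 at stage III, 12.53, 12.87 and 12.76 at stage IV and 5.26 to 7.72 in leaf (5.04 ± 0.35), and was higher at stage IV than at stage III by 2.86. The second, contig18849, was higher by 4.57 ± 0.54. The MADS-box regulators of ovule and seed coat identity, STK (contig03520, 3.93 ± 0.20) and TT16 (contig03243, 1.72 ± 0.26), were well above background on no leaf array. Against the lowest signal well above background, seed was higher by at least 2.92 on the log2 scale for contig03520 and at least 0.89 for contig03243, which was well above background on 3 of the 6 seed arrays. They were lower at stage IV than at stage III, by 2.96 for STK, and TT16 was well above background on none of the 3 arrays of stage IV. The summed signal of the 3 seed coat markers (STK, TT16 and BAN) was 8.29 to 8.82 at stage III, 5.04 to 5.90 at stage IV and 11.36 to 14.38 in leaf, where BAN made up nearly all of it. The part of seed coat tissue in the differences was not tested.

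Phenylpropanoid synthesis had 22 of 89 contigs higher (24.7%) and 28 lower (31.5%), near the shares of all contigs (20.6% and 24.1%), and 23 and 29 on slides 1 to 3. The medians of the flavonoid (-0.13) and phenylpropanoid (-0.03) lists changed sign with 75th percentile scaling (0.03 for both), and that of the phenylpropanoid list also with slide as a block (0.003). A caffeoyl-CoA O-methyltransferase, an enzyme of lignin monomer synthesis that both lists share (contig12199), gave 11.39, 10.25 and 10.97 at stage III and 10.36, 10.39 and 10.37 at stage IV, and 1.79 to 1.87 in leaf, not well above background on any leaf array (at least 161-fold higher). A second contig of that name (contig21555) was at least 69.3-fold higher. A peroxidase or peroxiredoxin contig (contig02951) gave 16.20 to 16.41 in seed and 3.15 to 5.89 in leaf (11.93 ± 0.42). A β-glucosidase (contig07683, -8.00 ± 0.41) and a limonoid or sinapate glucosyltransferase (contig03272, -7.84 ± 0.35) were lower. The latter gave 10.71 to 12.67 in leaf and 2.13 to 4.94 in seed, and its primers are printed as those of a contig called lower.
contig03272 primer 1: aaggctgcaactgaaggatg
contig03272 primer 2: tgttctgccagatgggtttt

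Casbene synthase, the enzyme class that makes the diterpene from which phorbol esters are thought to derive, was represented by 1 contig that is also assigned to δ-cadinene synthase (contig07123). It gave 4.67, 6.74 and 4.71 at stage III, 4.50, 3.54 and 4.20 at stage IV and 1.85 to 8.58 (median 5.26) in leaf. The tissues overlapped fully, and the difference was -0.22 ± 0.90 (adjusted p = 0.876), with 0.18 on slides 1 to 3 and 0.22 with 75th percentile scaling.

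Cell wall enzymes for cellulose and pectin remodelling were lower in 33 of 78 contigs (42.3%) and higher in 12 (15.4%). The shares of all contigs were 24.1% and 20.6%. The median was -0.70, and on slides 1 to 3 the counts were 30 and 10. Contigs for a pectinesterase (contig17718) and a polygalacturonase (contig17350), which demethylate and cut pectin, were well above background on all leaf arrays and on no seed array, and leaf was at least 278-fold and at least 130-fold higher. Another pectinesterase (contig04213) was at least 38.3-fold higher in seed. A contig assigned to cellulose synthase and to galactinol synthase (contig03208), which the raffinose list holds too, was higher by 5.21 ± 0.56.

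In nitrogen assimilation, 4 of 14 contigs were higher (28.6%) and 5 lower (35.7%), beside 20.6% and 24.1% of all contigs. Ferredoxin-nitrite reductase of the chloroplast (contig15848) gave 11.09 to 13.14 in leaf and 7.10 to 10.11 in seed (-3.50 ± 0.26), and an asparagine synthase (contig05464) was lower too (-3.50 ± 0.80). NADH-dependent glutamate synthase, the form of non-green tissue (contig01317, GLT1), was higher by 4.42 ± 1.27 on 16 arrays but by 2.06 on slides 1 to 3, and contig09880 by 4.46 ± 1.25 and 2.07. The leaf signal of both was lower on slide 4 than on slides 1 to 3, and both were called in both fits.

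Ribosomal proteins were lower in 10 of 31 contigs and higher in 0 (32.3%, beside 24.1% of all contigs, median -0.62). On slides 1 to 3, 12 were lower and 2 higher, and with slide as a block 3 were higher. The largest falls were those of 2 chloroplast 50S proteins, contig00532 (-3.52 ± 0.22) and contig00116 (-3.23 ± 0.22). Of 44 contigs listed as transcription factors, 10 were higher (22.7%) and 11 lower (25%), close to the shares of all contigs. On slides 1 to 3 the counts were 12 and 9. These and the ribosomal contigs are only those found among the 1010 contigs whose main annotation was read here. The study lists more transcription factors. A heat shock factor with HSFA2 as its *Arabidopsis* counterpart (contig00250) gave 12.72 to 13.16 in seed and 5.46 to 7.78 in leaf (6.32 ± 0.28). NAC domain proteins, a large plant family of transcription factors, were found at both ends, with contig00268 higher (6.61 ± 0.65) and contig01099 lower (-5.44 ± 0.41). A GATA factor (contig00392) was lower as well (-3.79 ± 0.58).

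**Figure D5:**
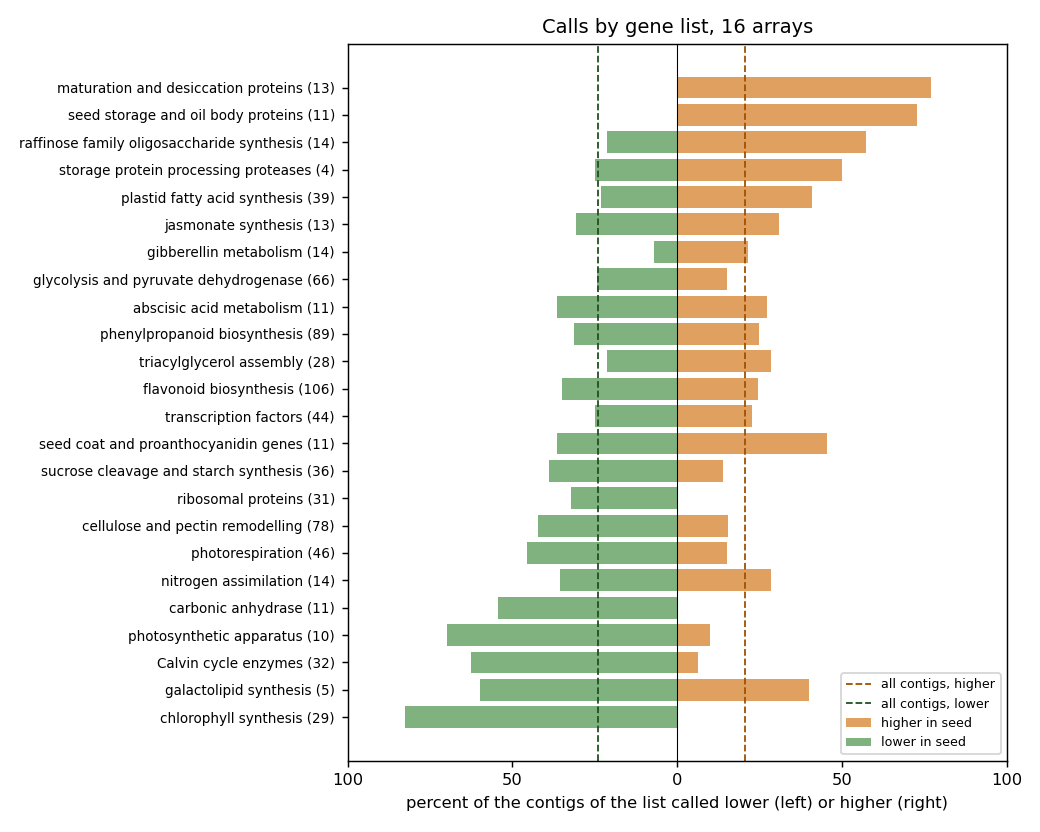
Percent of the contigs of each of 24 gene lists called higher in seed (right) or lower in seed (left) on 16 arrays, ordered by median difference, with the number of contigs in brackets. Dashed lines mark the shares of all contigs (20.6% higher, 24.1% lower), beside 76.9% higher for maturation and desiccation proteins and 82.8% lower for chlorophyll synthesis.

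Among annotated contigs called in both fits, with tissues that did not overlap and at least 1 array of each tissue well above background, the largest rise was that of a dehydration-responsive RD22-like protein of the BURP family (contig00434). It gave 17.39, 16.92 and 17.59 at stage III, 16.22, 16.22 and 16.28 at stage IV and 2.36 to 4.37 in leaf (13.40 ± 0.33). A contig described only as "protein" whose *Arabidopsis* counterpart is cruciferin CRU2, an 11S storage globulin (contig00915), gave 18.04, 17.82 and 18.35, then 18.61, 18.70 and 18.70, with 2.91 to 7.63 in leaf (13.32 ± 0.63). It stood outside the storage list and, unlike the 11S globulin contig10678, showed no stage difference past the threshold (0.60).

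Also among the 10 largest rises by this rule, which leaves out contigs dim on every array of a tissue, were malate synthase of the glyoxylate cycle (contig11412, 14.82 to 15.34 in seed, 1.84 to 4.77 in leaf, 11.98 ± 0.48), a further embryo-specific protein (contig00950, 12.37 ± 0.38) and an uncharacterized GPI-anchored protein (contig00062, 11.02 ± 0.32). The remaining ones were the oleosin, TIP3, embryo-specific protein 1, reductase and peroxidase contigs given above.

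The 10 largest falls by the same rule were led by rubisco (contig19317) and held, beside contigs already named, a zinc transporter with ZIP11 as its counterpart (contig00649, 14.96 to 16.59 in leaf and 6.63 to 8.09 in seed, -8.50 ± 0.23), an MTA/SAH nucleosidase-type phosphorylase (contig02942, -8.15 ± 0.99), a calmodulin-like calcium-binding protein (contig19344, -7.95 ± 0.41), a carboxylesterase (contig02315, -7.64 ± 0.58) and a contig described as unknown (contig08438, -9.77 ± 0.27).

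Some contigs were measured in only 1 tissue. Well above background on every seed array and no leaf array were 246 contigs (1.24%), and on every leaf array and no seed array 110 (0.554%), of which 40 and 21 carried an annotation. The 5 annotated seed contigs with the highest signal were the vicilin-like contig13681, a malate synthase (contig11513, at least 1634-fold), an oxime monooxygenase-type cytochrome P450 (contig04359, at least 848-fold), a pathogen-related protein (contig02357, at least 238-fold) and another cytochrome P450 (contig00658, at least 214-fold). This last contig gave 8.99, 9.37 and 9.07 at stage III and 13.09, 13.26 and 13.10 at stage IV, so the stages differed by 4.004 (adjusted p = 6.59e-05). On the leaf side stood a GDSL esterase or lipase (contig00397, at least 479-fold higher in leaf), the pectinesterase contig17718, the polygalacturonase contig17350, a leucocyanidin oxygenase (contig15882, at least 115-fold) and an aspartyl protease (contig00007, at least 84.3-fold).

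Some of the largest differences belonged to contigs with no description in the sources used here. Higher in seed were contig15759 (17.95, 17.90 and 17.95 at stage III, 18.55, 18.41 and 18.61 at stage IV, 1.91 to 6.07 in leaf, 14.88 ± 0.68), contig11406 (14.65 ± 0.43) and contig11514 (14.55 ± 0.28). Lower were contig06505 (14.13 to 18.55 in leaf, 2.09 to 4.76 in seed, -13.51 ± 0.62) and contig01724 (-10.61 ± 0.38), and contig06535, dim on all 6 seed arrays, was at least 4450-fold higher in leaf. All 6 kept their direction and call on slides 1 to 3.

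The 2 seed stages were compared with leaf separately, using the same leaf arrays. Stage III had 3707 contigs higher (18.7%) and 4784 lower (24.1%), and stage IV 3975 (20%) and 4289 (21.6%). With 75th percentile scaling the balance turned over at both stages, to 12731 probes higher and 8093 lower at stage III (7952 and 10394 after quantile normalization) and 10188 and 7647 at stage IV (8389 and 8890). Of the contigs called for the mean of both stages, 2853 of the 4084 higher (69.9%) and 3401 of the 4780 lower (71.2%) were called at each stage alone, and 23 contigs of all 19838 (0.116%) were higher at one stage and lower at the other. The stages themselves differed at 2111 contigs (10.6%, and 7.68% of probes), 1285 higher and 826 lower at stage IV. That balance turned over as well, from 2778 probes higher and 1666 lower to 2090 and 4354 with 75th percentile scaling. Among contigs higher than in leaf, 293 were higher and 220 lower at stage IV than at stage III, and among those lower than in leaf 449 and 349. By list, median differences from leaf were 9.07 at stage III and 5.97 at stage IV for storage and oil body proteins, 7.70 and 7.38 for maturation and desiccation proteins, and -2.04 and -1.84 for chlorophyll synthesis. Numbers of members called at each stage were nearly equal (8 and 7 of 11, 11 and 10 of 13 higher, 25 and 23 of 29 lower, with 1 chlorophyll contig higher at each). The medians of these lists thus had the same sign at both stages, but those of some other lists did not. At stages III and IV they were 1.03 and -0.72 for jasmonate, 0.73 and -0.31 for gibberellin and -0.28 and 0.90 for abscisic acid. They were 0.36 and -0.65 for seed coat genes and 0.15 and -0.58 for flavonoid synthesis. Smaller changes of sign occurred for triacylglycerol assembly (-0.08 and 0.18) and glycolysis (0.17 and -0.09). The single casbene synthase contig changed sign too, and the remaining lists kept theirs.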

How the data were processed

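Leaf and seed RNA was hybridised to one-colour Agilent arrays made for this species. The deposited scanner files hold linear Cy3 intensity per spot from Agilent Feature Extraction 10.5.1.1, background-subtracted after spatial detrending by the authors' software. The authors also deposited log2 values per probe, made by averaging replicate spots, log2 transformation, imputation from nearest neighbours and quantile normalization. Their scale and centring are not stated, and they served as an alternative. From the processed intensities of the 16 arrays, control spots and outlier spots were left out, spots of a probe were averaged before the log2 was taken, gaps were filled by a 10-nearest-neighbour mean, and quantile normalization followed (R 4.3.3, limma 3.58.1, data.table version 1.17.8, matplotlib 3.10.9).

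A model with 4 group means (toxic leaf, non-toxic leaf, stage III, stage IV) was fitted to all 57842 probes with limma's moderated test, and the mean of both seed stages was set against the mean of both leaf groups. P-values are two-sided and adjusted by Benjamini-Hochberg over all probes. The study's methods state biological replicates for the seed stages, from 1 plant. For the leaf arrays the labels name the accession but not separate plants or extractions, so these may be technical replicates. Their titles hold numbered codes of unstated meaning, and some numbers recur between slide 4 and slides 1 to 3. Whether an RNA source was used again on slide 4 is thus not known. On data simulated for the 16-array comparison, with 200 of 57842 probes changed, 14.9%, 64.2% and 93.9% of true differences of 1, 2 and 4 were called, with 4 false calls. Its noise was independent between arrays, with no slide effect. Far fewer probes were changed than were called in the data (8766 higher and 10482 lower), which makes the adjusted threshold stricter. These shares and false calls are therefore not those of the real comparison. The alternatives tried were 75th percentile scaling, normexp background correction (offset 50) on spot medians, the deposited values, slide as a block, 2 groups in the model, all 31 arrays, a filter on dim probes (well above background on at least 3 arrays), outlier spots kept, other thresholds, the mean of all probes of a contig and each array left out.

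Contigs were described from the study's annotation spreadsheets (3451 with a text or enzyme) and, for names alone, 1663 matched a RefSeq gene of assembly XTBG_Jcur_1.0. As read here, the enzyme annotation had 15 entries cut short, peroxidase among them, so lists built on enzymes may lack members. The study's main annotation was read for 1010 contigs only, 839 of them with a text. The ribosomal protein and transcription factor lists therefore hold only a part of such contigs. Contigs without a description here may have one in the study. Named were all contigs of the storage, maturation and photosynthetic apparatus lists and of lists of at most 3, the 2 largest rises and falls called in each other list, the 10 largest annotated rises and falls called in both fits without overlap and well above background on at least 1 array of each tissue, the 5 brightest annotated contigs measured in 1 tissue alone, and the 3 largest unannotated rises and falls. The groups, lists and rules were chosen with earlier results of these data known.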

Additional observations from a re-analysis of the deposited data

Results flagged for a closer look

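Single arrays stood far from the rest of their tissue in 8 of the 258 groups of values examined over 129 contigs, where chance alone would give about 1 in 20. Stage III replicate 2 was the far array in 3 of these. It gave 13.46 for the NAC factor contig00268 (other seed arrays 11.75 to 12.33), 5.041 for the carboxylesterase contig02315 (2.031 to 2.3), and 6.739 for the casbene synthase contig07123 (3.542 to 4.709). Among leaf arrays, non-toxic replicate 1 gave 3.628 for the pectinesterase contig04213, and non-toxic replicate 2 gave 3.941 for contig11514 and 3.402 for the seed maturation protein contig15908. Toxic replicate 1 gave 2.998 for the vicilin-like contig13681 and 3.885 for the methyltransferase contig21555. For contig04213, contig13681 and contig21555 no leaf array was well above background, so these are differences between dim spots.

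For 16 of the 129 contigs examined the difference from leaf was not the same at stages III and IV by limma's test of the stage difference itself (stage IV minus stage III, adjusted p under 0.05 and a difference of at least 1). Higher at stage IV were a cytochrome P450 (contig00658, 4.004), fructose-bisphosphate aldolase (contig07145, 4.151), the TT12-like transporter contigs contig18849 (3.246) and contig18848 (2.86), abscisic acid 8'-hydroxylase (contig17989, 1.802), glutamyl-tRNA reductase (contig10864, 1.781), a class IV small heat shock protein (contig02002, 1.751), zeaxanthin epoxidase (contig07393, 1.595) and a galactolipid synthesis contig (contig16135, 1.024). Lower at stage IV were the 11S globulin (contig10678, -3.579), a calmodulin-like protein (contig19344, -2.236), an oxoacyl-ACP reductase (contig06231, -2.221), ferredoxin-nitrite reductase (contig15848, -1.974), a caffeoyl-CoA O-methyltransferase (contig21555, -1.958), a pectinesterase (contig04213, -1.403) and the WSD1-like acyltransferase (contig00653, -1.274). Among contigs named outside these 129, the seed coat markers STK (contig03520) and TT16 (contig03243), the acyl-ACP desaturase contigs contig16368 and contig03293 and the acyl carrier protein contig19942 were lower at stage IV by the same test. The study had picked contig18848, contig18849, contig02002, contig10678, contig03520, contig03243 and contig19942 for differing between seed stages. Their stage differences are not independent evidence.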

How the results depend on the processing

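Every named contig that was called kept the sign of its difference under the alternatives tried. Of those not called, contig07123, contig17287, contig00736, contig14417 and the leaf marker contig13733 turned positive with 75th percentile scaling, and contig07123, contig17287 and contig14417 under other settings too. The balance of probes called higher and lower turned over with 75th percentile scaling in each comparison of seed with leaf and between the stages. That scaling gave 12139 higher and 8195 lower on 16 arrays (8766 and 10482 after quantile normalization), 10659 and 8460 on slides 1 to 3 (8724 and 9990), 12731 and 8093 at stage III (7952 and 10394), 10188 and 7647 at stage IV (8389 and 8890), and 2090 and 4354 at stage IV against stage III (2778 and 1666). The median difference over all probes was -0.06 after quantile normalization and 0.31 with that scaling, so directions of small differences are relative to these centres. With normexp background correction, 5011 probes were higher and 5771 lower on 16 arrays, 4751 and 5221 on slides 1 to 3, 5149 and 6237 at stage III, 5198 and 5374 at stage IV, and 1718 were higher at stage IV than at stage III. With the deposited values, 4452 probes were higher and 4105 lower at stage IV than at stage III.

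Over the 12 arrays of slides 1 to 3, arrays of the same slide did not all deviate together (mean r 0.09, -0.04 and 0.22 on slides 1, 2 and 3). Slides were not treated as pairing the samples. Over 16 arrays, mean r was 0.16, -0.01 and 0.21 on these slides and 0.57 on slide 4, against -0.06 between slides. The leaf arrays of slide 4 thus deviated together, and the main model holds no term for this. With slide as a block, 8818 probes were higher and 10231 lower on 16 arrays, and 8709 and 10057 on slides 1 to 3. Between stages IV and III the block gave 4642 higher and 3875 lower. At an adjusted p under 1e-08 the balance turned over too, and 905 probes were higher and 769 lower on 16 arrays, 397 and 140 on slides 1 to 3, 472 and 297 at stage III, 504 and 277 at stage IV, and 0 and 0 between the stages by limma (2778 and 1666 at 0.05). With all 31 arrays, toxic and non-toxic leaf differed at 3 probes, higher in toxic.

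When each array was left out in turn, 8198 to 8977 probes were higher and 9919 to 10640 lower on 16 arrays, and 8481 to 8894 and 9657 to 10074 on slides 1 to 3. Stage III gave 6965 to 8170 and 8929 to 10559, and stage IV 7242 to 8562 and 7412 to 9002. Between the stages, 1592 to 3077 probes were higher at stage IV and 984 to 1849 lower, with 1592 and 984 without stage IV replicate 2 and 997 lower without stage IV replicate 1. Toxic against non-toxic leaf gave 0 to 2 higher and 0 to 1 lower.

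Of the 136 named contigs, 63 missed the threshold of 1e-08, 5 lost their call with normexp correction, 2 with 75th percentile scaling, 1 with the deposited values, 2 with slide as a block and 5 with the mean of all probes. These last 5 were contig02672 (-0.64), contig01580 (-0.94), contig10244 (-0.94), contig02283 (-0.97) and contig03089 (-0.72). In the deposited values the LEA 2-like contig00783 (1.97) and the cupin contig00553 (1.64) were called. With the mean of all probes contig00783 (6.24) and the D-34-like contig02026 (3.47) were called. Over lists, normexp lowered the medians of storage (5.49), maturation (5.57) and raffinose (1.93) contigs. The cause of these shifts was not tested. Signal over background was low (median 1.89 to 3.5 per array), which limits fold changes of dim contigs. The simulation, with far fewer changed probes than the data and no slide effect, found 14.9% of differences of 1.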

Other observations

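Enzymes of the glyoxylate cycle, by which seedlings turn stored fat into sugar, were looked up after malate synthase had appeared among the largest rises. All 3 malate synthase contigs were higher in seed, contig11412 by 11.98 ± 0.48, contig05881 by 9.77 ± 0.49 and contig11513, not well above background on any leaf array, at least 1634-fold. Isocitrate lyase, the other enzyme particular to the cycle, was split. Contig14634 was higher (7.02 ± 1.43), with 15.58 to 16.48 in seed and 4.02 to 14.27 in leaf, while contig00482 was lower (-2.76 ± 0.30), with 11.86 to 14.11 in leaf and means of 12.07 at stage III and 8.90 at stage IV.

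The 31 ribosomal protein contigs of the list, a part of those on the array, were also divided after their values were seen. Of 8 described as 50S, 30S or chloroplast proteins 6 were lower in seed and 0 higher (median -2.58), and of the other 23, 4 were lower and 0 higher (median -0.43). On slides 1 to 3, 5 of the 8 were lower and 0 higher, and of the other 23, 7 were lower and 2 higher.

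Between the leaf arrays of slide 4 and those of slides 1 to 3, 552 probes lay at least 4 apart, and 528 of them were lower on slide 4. Of these, 518 were also lower by at least 1 on the 3 seed arrays of other stages that share slide 4. Among the 552, 50 were called in the 16-array comparison, 94 on slides 1 to 3 and 35 in both in the same direction. In the deposited values 0 of them lay even 1 unit apart between the slides.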
